A study of Mus musculus with 10 samples.

Results

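A set of 10 marker genes of neural progenitors and their descendants was read in flank tumours grown from DAOY, a human cell line established from a medulloblastoma. They were listed by name, and earlier results of these data were known when the list was made: NES (ENSG00000132688), VIM (ENSG00000026025), SOX2 (ENSG00000181449), SOX9 (ENSG00000125398), PAX6 (ENSG00000007372), ZIC1 (ENSG00000152977), ATOH1 (ENSG00000172238), TUBB3 (ENSG00000258947), MAP2 (ENSG00000078018) and GFAP (ENSG00000131095). They are 10 of the 33538 gene identifiers in the deposited count table. Of the 10, 9 passed the filter on low counts that left 16013 genes to test, and ATOH1 had no read in any tumour. DAOY cells had been grafted on the flank of nude mice, whose immune deficiency lets human cells grow. Control hosts were fed ordinary chow (n = 3), and the others were given an oil with docosahexaenoic acid (DHA oil, n = 3) or fish oil (n = 4), all for 30 days by their labels. Fish oil was read here as the arm of the design that adds eicosapentaenoic acid to DHA, another omega-3 fatty acid of long chain. Every tumour came from this 1 cell line and may have held mouse host tissue as well, which was not measured. The age of the mice was not given, and the labels name no mouse per library, so the p-values reflect the spread of these samples, which may in part be technical.

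Medulloblastoma is a childhood tumour of the cerebellum, and DAOY is often used as a model of its Sonic hedgehog class. Tumours of that class are thought to arise from granule neuron progenitors. In the embryo these cells leave the rhombic lip under the transcription factor ATOH1, carry PAX6 and ZIC1, divide in response to Sonic hedgehog, and then become neurons whose cytoskeleton holds TUBB3 and MAP2. Neural stem cells and radial glia instead carry the intermediate filament proteins nestin (NES) and vimentin (VIM) and the transcription factors SOX2 and SOX9, while GFAP is the intermediate filament of astrocytes. Vimentin is also abundant in fibroblasts and most cultured lines, so alone it marks no neural cell.

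Total counts per library ranged from 6187116 to 10035702. Levels are given in CPM, counts per 1000000 of the library total after TMM scaling, whose factors lay between 0.978 and 1.02. Fish oil replicates 4 and 2 stood apart from the rest on the first principal component of all genes tested, which held 26.4% of the variance, at -52.9 and -21.4 against -1.71 to 19.1 for the other 8 libraries. Several results that lean on those libraries are therefore given with and without them. Markers of host and other cell types could not be measured, because the count table pairs no identifier with a name and the gene name table at hand, of mouse genes, matched 0 of its identifiers. Mouse reads that align to human genes may be among the counts, and their part in the values below was not tested. In bulk tumours, fewer cells of a type and less RNA per cell cannot be told apart.

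Apart from ATOH1, the DAOY tumours carried reads of the stem cell markers, of the rhombic lip factors PAX6 and ZIC1, and of the neuronal and astrocytic genes in all 10 libraries. None of the 9 markers tested passed the threshold in any comparison of diets, and for each of them the diet means lay closer to their neighbours in order than the larger SD. The widest departures from the mean were those of TUBB3, GFAP, SOX2, NES and ZIC1, several of them in fish oil replicate 4.

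**Figure D1:**
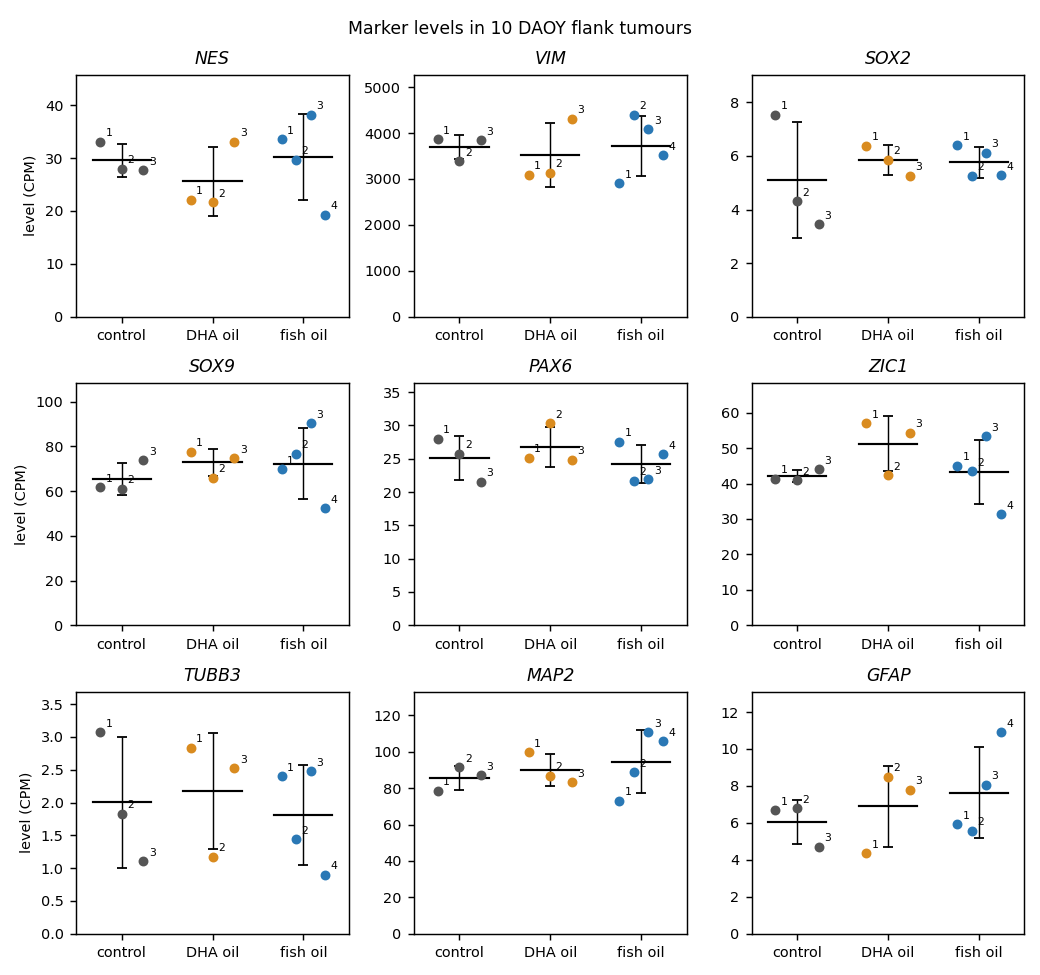
Level of the 9 detected markers (CPM, linear axis from 0) in each library by diet; points are libraries numbered by replicate, the horizontal line is the diet mean and the bar its SD. In every panel the 3 diets overlap. The control libraries of SOX2 are spread more widely than all oil libraries together, and those of TUBB3 about as widely.

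The intermediate filament genes were read first. NES, the filament of dividing neural progenitors, stood at 33.1, 28.0 and 27.7 CPM in control replicates 1 to 3, at 22.1, 21.6 and 33.1 CPM in DHA oil and at 33.6, 29.7, 38.2 and 19.3 CPM in fish oil. The highest and the lowest of these tumours, fish oil replicates 3 and 4, belonged to the same diet, and all groups overlapped. Control tumours averaged 29.6 ± 3.06 CPM (SD, n = 3), DHA oil tumours 25.6 ± 6.48 CPM (SD, n = 3) and fish oil tumours 30.2 ± 8.07 CPM (SD, n = 4). Between the oils the log2 fold change, fish oil minus DHA oil, was 0.23 (95% interval -0.22 to 0.69). It was 0.40 without fish oil replicate 4 (unadjusted p = 0.0364, adjusted p = 0.999 by edgeR's quasi-likelihood test) and 0.49 without fish oil replicates 2 and 4 (unadjusted p = 0.0182, adjusted p = 1). Other omissions moved it both ways: with fish oil replicate 3 left out it was 0.10. Leaving out replicates 1, 2 and 3 of DHA oil, one at a time, gave 0.14, 0.12 and 0.46. With replicate number as a block it was 0.41 (unadjusted p = 0.0256, edgeR), which did not pass adjustment. Fish oil against control was 0.02. That value was 0.28 without fish oil replicates 2 and 4 and -0.11 without fish oil replicate 3.

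VIM was supported by 18133 to 42601 reads per library, so counting error was a small part of its spread. Control libraries held 3862, 3387 and 3844 CPM, DHA oil libraries 3097, 3141 and 4318 CPM, and fish oil libraries 2903, 4397, 4086 and 3514 CPM. The 3 controls lay within the range of each oil group. The control mean was 3697 ± 269 CPM (SD, n = 3), that of DHA oil 3519 ± 692 CPM (SD, n = 3) and that of fish oil 3725 ± 659 CPM (SD, n = 4). With both oils as 1 group the log2 fold change against control was -0.03 (95% interval -0.37 to 0.31), which is 0.774-fold to 1.24-fold.

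GFAP was detected with 34 to 97 reads per library. It stood at 6.68, 6.80 and 4.70 CPM in control, at 4.37, 8.50 and 7.79 CPM in DHA oil and at 5.92, 5.57, 8.08 and 10.9 CPM in fish oil. Fish oil replicate 4 was the highest of all tumours and DHA oil replicate 1 the lowest. Control tumours averaged 6.06 ± 1.18 CPM (SD, n = 3), DHA oil tumours 6.89 ± 2.21 CPM (SD, n = 3) and fish oil tumours 7.62 ± 2.46 CPM (SD, n = 4). The log2 fold change against control was 0.19 with DHA oil (95% interval -0.47 to 0.84), and it lay between 0.007, when DHA oil replicate 2 was left out, and 0.42, when replicate 1 of that diet was. With fish oil it was 0.33 (-0.29 to 0.95). That value was 0.10 without fish oil replicate 4, 0.18 without control replicate 3 and 0.46 without fish oil replicate 2, and it was 0.21 without fish oil replicates 2 and 4 together and 0.08 with replicate number as a block. Set against the vimentin reads of the same library, GFAP had 1.65 ± 0.397 reads per 1000 VIM reads (SD, n = 3) on control chow, 1.98 ± 0.664 (SD, n = 3) with DHA oil and 2.10 ± 0.759 (SD, n = 4) with fish oil. Fish oil replicate 4, at 3.11, and DHA oil replicate 2, at 2.71, had the most GFAP by that measure.

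The SOX factors maintain stem and glial fates; SOX2 holds neural stem cells undifferentiated and SOX9 is needed for the switch to glia. SOX2 had 25 to 71 reads per library. The control libraries were the least alike, at 7.53, 4.31 and 3.46 CPM, while DHA oil libraries held 6.38, 5.87 and 5.27 CPM and fish oil libraries 6.40, 5.26, 6.12 and 5.29 CPM. Control replicate 1 was the highest of the 10 and control replicates 2 and 3 were the lowest, below every oil library. Control tumours averaged 5.10 ± 2.15 CPM (SD, n = 3), DHA oil tumours 5.84 ± 0.559 CPM (SD, n = 3) and fish oil tumours 5.77 ± 0.581 CPM (SD, n = 4).

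The size and sign of the SOX2 difference depended on which control libraries were included. With both oils against control the log2 fold change was 0.16 (95% interval -0.34 to 0.67) with all libraries and 0.57 without control replicate 1 (unadjusted p = 0.0337). The latter did not pass adjustment (adjusted p = 1, edgeR). It was 0.58 for DHA oil and 0.56 for fish oil against the remaining 2 controls, which both comparisons share, and -0.05 for both oils against control when control replicate 3 was left out instead. SOX2 lies within a long noncoding gene, and how reads over both were counted is not given in the sources used here.

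SOX9 stood at 61.6, 61.0 and 73.8 CPM in control, at 77.7, 66.1 and 74.8 CPM in DHA oil and at 69.8, 76.8, 90.3 and 52.4 CPM in fish oil. Fish oil held both ends of the range, replicate 3 the highest and replicate 4 the lowest value. The control mean was 65.5 ± 7.23 CPM (SD, n = 3), that of DHA oil 72.9 ± 6.04 CPM (SD, n = 3) and that of fish oil 72.3 ± 15.8 CPM (SD, n = 4). Against control the log2 fold change was 0.15 (95% interval -0.21 to 0.52) with DHA oil and 0.14 (-0.20 to 0.48) with fish oil. Without fish oil replicate 4 the fish oil value was 0.27 (unadjusted p = 0.0479, adjusted p = 1 by edgeR), and without fish oil replicates 2 and 4 it was 0.29. With replicate number as a block it was 0.27 (unadjusted p = 0.0364, edgeR), which did not pass adjustment. Without fish oil replicate 3 it was 0.02 (unadjusted p = 0.909, adjusted p = 0.99 by edgeR), and without control replicate 3 it was 0.23 for fish oil and 0.25 for DHA oil.

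The factors of the rhombic lip and its descendants divided into detected and undetected. ATOH1, which specifies granule neuron progenitors, had 0 of 85097274 counts over the 10 libraries, which allows a level of up to 0.0353 CPM over all and of 0.299 to 0.485 CPM in a single library. That limit covers counting error only. ZIC1, a zinc finger factor of dorsal neural tissue kept in granule cells, was read at 41.4, 40.9 and 44.1 CPM in control, at 57.0, 42.4 and 54.4 CPM in DHA oil and at 45.0, 43.5, 53.4 and 31.4 CPM in fish oil. The controls were close together, DHA oil replicates 1 and 3 and fish oil replicate 3 were above all others, and fish oil replicate 4 was below all others. Control tumours averaged 42.1 ± 1.73 CPM (SD, n = 3), DHA oil tumours 51.3 ± 7.76 CPM (SD, n = 3) and fish oil tumours 43.3 ± 9.07 CPM (SD, n = 4).

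Of the 9 markers ZIC1 had the smallest p for DHA oil against control, where the log2 fold change was 0.28 (95% interval -0.09 to 0.65; unadjusted p = 0.126, adjusted p = 1, edgeR), a 1.22-fold difference. The value was 0.28 as well without fish oil replicates 2 and 4 (unadjusted p = 0.0421, adjusted p = 0.929, edgeR). No fish oil library enters this fold change, so it could hardly move and that fit is no check on it. The p can differ because all libraries in a fit share the estimate of spread. A fit of only DHA oil and control gave unadjusted p = 0.0403 (adjusted p = 0.912, edgeR). With replicate number as a block the unadjusted p was 0.0446 (edgeR), which did not pass adjustment. The fold change was 0.20 when DHA oil replicate 1 was left out and 0.40 when replicate 2 of that diet was. DHA oil replicate 2 overlapped the controls. Fish oil minus DHA oil was -0.24 (-0.59 to 0.10), and -0.06 without fish oil replicates 2 and 4. It was -0.12 with fish oil replicate 4 alone left out and -0.36 with replicate 3 of that diet left out (unadjusted p = 0.0426, adjusted p = 0.627 by edgeR). Leaving out replicates 1 and 2 of DHA oil, one at a time, gave -0.16 and -0.36. Fish oil against control was 0.04. That value was 0.23 without fish oil replicates 2 and 4 and -0.08 without fish oil replicate 3.

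PAX6, a homeodomain factor of granule cell precursors and of radial glia, stood at 28.0, 25.7 and 21.6 CPM in control, at 25.2, 30.3 and 24.9 CPM in DHA oil and at 27.5, 21.7, 21.9 and 25.7 CPM in fish oil. It was the steadiest of the markers, with a coefficient of variation of 11.6% over the 10 libraries, and its groups overlapped throughout. The control mean was 25.1 ± 3.27 CPM (SD, n = 3), that of DHA oil 26.8 ± 3.05 CPM (SD, n = 3) and that of fish oil 24.2 ± 2.89 CPM (SD, n = 4). With both oils against control the fold was 1.01 (95% interval 0.828 to 1.24).

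The neuronal cytoskeleton genes were both present. MAP2, a microtubule-associated protein of neuronal dendrites, held 78.5, 91.6 and 87.1 CPM in control, 99.8, 86.9 and 83.4 CPM in DHA oil and 73.0, 88.9, 110.9 and 105.7 CPM in fish oil. Fish oil replicates 3 and 4 were the highest and fish oil replicate 1 the lowest. Control tumours averaged 85.7 ± 6.66 CPM (SD, n = 3), DHA oil tumours 90.0 ± 8.62 CPM (SD, n = 3) and fish oil tumours 94.6 ± 17.2 CPM (SD, n = 4), and the log2 fold change of fish oil against control was 0.14 (95% interval -0.16 to 0.45). It was 0.25 without fish oil replicate 1, and 0.06, 0.09 and 0.08 without fish oil replicate 3, fish oil replicate 4 and control replicate 1.

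TUBB3, the beta-tubulin of young neurons, rested on 8 to 29 reads per library. It stood at 3.08, 1.83 and 1.11 CPM in control, at 2.84, 1.17 and 2.53 CPM in DHA oil and at 2.40, 1.44, 2.48 and 0.901 CPM in fish oil. Every diet held tumours at both the high and the low end of this range. The exact binomial 95% interval was 2.07 to 4.44 CPM of the raw total for the highest library, control replicate 1, and 0.384 to 1.76 CPM for the lowest, fish oil replicate 4. The control mean was 2.00 ± 0.997 CPM (SD, n = 3), that of DHA oil 2.18 ± 0.885 CPM (SD, n = 3) and that of fish oil 1.81 ± 0.764 CPM (SD, n = 4). The interval for both oils against control ran from 0.530-fold to 1.72-fold. The human TUBB3 locus also carries read-through transcripts from a neighbouring gene, and reads over both may be lost or split in counting, so its absolute level is uncertain.

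**Figure D2:**
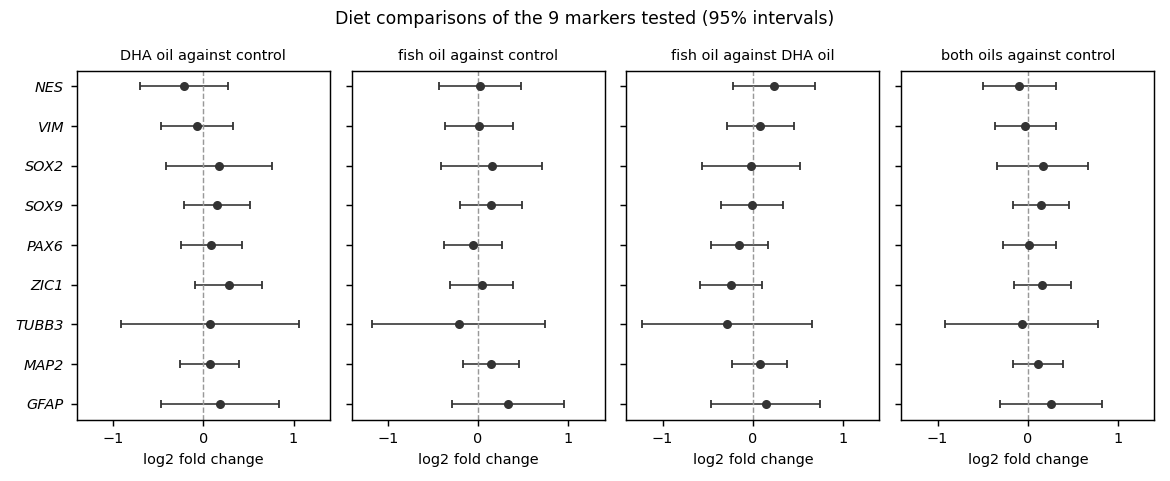
Log2 fold change (first diet named minus second) of the 9 markers tested, with 95% intervals, from 1 edgeR fit of all 10 libraries. Every interval includes 0; those of PAX6 and MAP2 are the narrowest and those of TUBB3 the widest.

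The question of the study was whether the omega-3 diets changed the tumours, and for these markers no such difference was detected. For DHA oil against control edgeR called 0 of 16013 genes (0% of those tested) and 0 of the 9 markers. An unadjusted p under 0.05 was found for 438 genes, 2.74% of all, and for 0 markers, while DESeq2 and limma-voom called 11 and 3 genes, none of them a marker. For fish oil against control 1 gene (0.00624%) and 0 markers were called, and 558 genes (3.48%) and 0 markers had an unadjusted p under 0.05, while DESeq2 called 20 genes and limma-voom 0. For fish oil against DHA oil 0 genes (0%) and 0 markers were called, with 775 genes (4.84%) and 0 markers at an unadjusted p under 0.05 and 1 gene called by DESeq2. For both oils against control 21 genes (0.131%), all lower with the oils, and 0 markers were called, with 419 genes (2.62%) and 0 markers at an unadjusted p under 0.05, while DESeq2 called 27 genes and limma-voom 1.

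No marker separated the diets without overlap either. Among all genes tested the 2 groups did not overlap for 10.6% in DHA oil against control, 3.74% in fish oil against control, 4.95% in fish oil against DHA oil and 1.12% in both oils against control, and for the markers the count was 0 of 9 each time. The markers' median log2 fold change was 0.09 for DHA oil against control, with 7 of 9 above 0, and 0.04 for fish oil against control, again with 7 of 9 above 0. The 2 comparisons share their controls. Over all genes these medians were 0.00 and 0.01, with 50.8% and 51.5% of genes above 0. Between the oils the markers' median was -0.01, with 4 of 9 above 0, against 0.01 and 52.1% over all genes. With all libraries in the fit, the largest differences of a single oil from control in absolute size were 0.33 on the log2 scale (GFAP, fish oil; 0.10 without fish oil replicate 4) and 0.28 (ZIC1, DHA oil).

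The width of the unadjusted 95% intervals differed by gene. For both oils against control they ran from 0.889-fold to 1.31-fold for MAP2, 0.894-fold to 1.37-fold for SOX9, 0.896-fold to 1.39-fold for ZIC1, 0.706-fold to 1.24-fold for NES, 0.790-fold to 1.59-fold for SOX2 and 0.809-fold to 1.77-fold for GFAP. For TUBB3 in a single oil against control the interval was wider, at 0.532-fold to 2.09-fold with DHA oil and 0.445-fold to 1.67-fold with fish oil.

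Spread between libraries was set beside the spread that counting alone gives, and what exceeds it may come from the tumours or from library preparation. Over the 10 libraries the coefficient of variation was 14.4% for VIM, 15.2% for SOX9, 13.1% for MAP2, 16.9% for ZIC1 and 21.4% for NES, where counting alone would give 0.565%, 4.10%, 3.60%, 5.10% and 6.44%. It was 39.7% against 24.5% for TUBB3, 28.4% against 12.9% for GFAP 20.6% against 14.5% for SOX2 and 11.6% against 6.81% for PAX6, so counting error was a larger part of the spread of these 4. Within diets the SD of log2 CPM was 0.23 for VIM, 0.24 for SOX9 and 0.24 for ZIC1, near the median of 0.24 over all genes tested. PAX6, at 0.17, was more variable than 26.5% of genes and MAP2, at 0.20, than 37.4%. SOX2, at 0.32, was more variable than 69% of genes, NES, at 0.34, than 73.1%, GFAP, at 0.42, than 82.9%, and TUBB3, at 0.62, than 95.5%, a measure that low counts also raise.

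**Figure D3:**
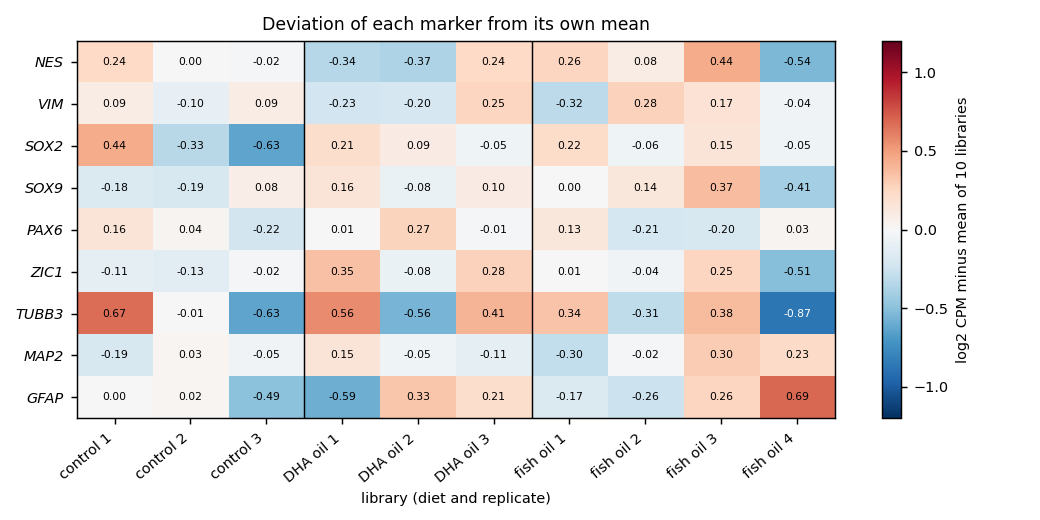
Log2 CPM of each marker minus its own mean over the 10 libraries, by library (columns, grouped by diet) and marker (rows); red is above and blue below the mean. Fish oil replicate 4 is lowest for NES, SOX9, ZIC1 and TUBB3 and highest for GFAP, and fish oil replicate 3 is above the mean for 8 of 9 markers.

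The profile of single tumours showed this spread. Fish oil replicate 4 had the lowest NES, SOX9, ZIC1 and TUBB3 of all libraries, at -0.54, -0.41, -0.51 and -0.87 from each gene's mean on the log2 scale, together with the highest GFAP (0.69). Its PAX6, at 0.03, and VIM, at -0.04, were near the mean. TUBB3 had 8 reads both there and in control replicate 3, so its lowest rank came from the library total alone. Fish oil replicate 4 is also the library farthest out on the first principal component, and what sets it apart was not tested. The share of all genes that were highest or lowest in this library was not computed, so these ranks cannot be read as particular to the markers. Fish oil replicate 3 was above the mean for 8 of 9 markers and held the highest NES, SOX9 and MAP2. Fish oil replicate 2, the other library apart on that component, held the highest VIM and was the lowest for no marker. Control replicate 1 held the highest SOX2 and TUBB3, and control replicate 3 the lowest SOX2 and PAX6. These are descriptions of single tumours, each measured once.

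How the markers moved together over the tumours was measured for the 36 pairs of the 9 genes, over libraries that share 1 line and 1 count table. SOX9 and ZIC1 were the most alike (Pearson's r = 0.863, permutation p = 0.0018, adjusted p = 0.0648; Spearman's rho = 0.867, permutation p = 0.00212, adjusted p = 0.0763; n = 10). The pair thus missed the threshold of 0.05 after adjustment over the 36 pairs. The r was 0.709 without the 2 libraries farthest from the SOX9 median, 0.820 without fish oil replicates 2 and 4, and 0.927 for deviations from the diet means. The ZIC1 and TUBB3 pair followed (r = 0.681, permutation p = 0.0276, adjusted p = 0.447; rho = 0.515, permutation p = 0.133, adjusted p = 0.685). Its r was 0.373 without the 2 libraries farthest from the ZIC1 median, 0.462 without fish oil replicates 2 and 4, and 0.707 for deviations from the diet means. Leaving out the ends of a gene's range can by itself lower r.

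The most opposed pair was VIM and PAX6 (r = -0.654, permutation p = 0.0441, adjusted p = 0.447; rho = -0.576, permutation p = 0.0885, adjusted p = 0.539), with r = -0.519 without the 2 libraries farthest from the VIM median. For SOX2 and SOX9 r was near 0 over all libraries (r = 0.037, permutation p = 0.918, adjusted p = 0.972; rho = 0.067, permutation p = 0.865, adjusted p = 0.945) and 0.489 without the 2 farthest from the SOX2 median. SOX9 had from 8.18 reads per SOX2 read in control replicate 1 to 21.4 in control replicate 3. The 2 neuronal genes, TUBB3 and MAP2, had r = -0.236 (permutation p = 0.505, adjusted p = 0.827; rho = -0.248, permutation p = 0.489, adjusted p = 0.766), and -0.018 without the 2 farthest from the TUBB3 median. NES and GFAP had r = -0.163 (permutation p = 0.652, adjusted p = 0.840; rho = -0.127, permutation p = 0.734, adjusted p = 0.911). The sign for NES and GFAP changed with the libraries included. Their r was 0.821 without the 2 farthest from the NES median and 0.325 without fish oil replicates 2 and 4, but -0.188 for deviations from the diet means. Over the 36 pairs, 23 had an r above 0 and 13 below, the median was 0.12, 3 had an unadjusted p under 0.05 and 0 passed adjustment. Without fish oil replicates 2 and 4, r was -0.562 for VIM and PAX6, 0.016 for SOX2 and SOX9, and 0.015 for TUBB3 and MAP2. The r of pairs over all genes was not computed, so these values cannot be read as particular to the markers.

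**Figure D4:**
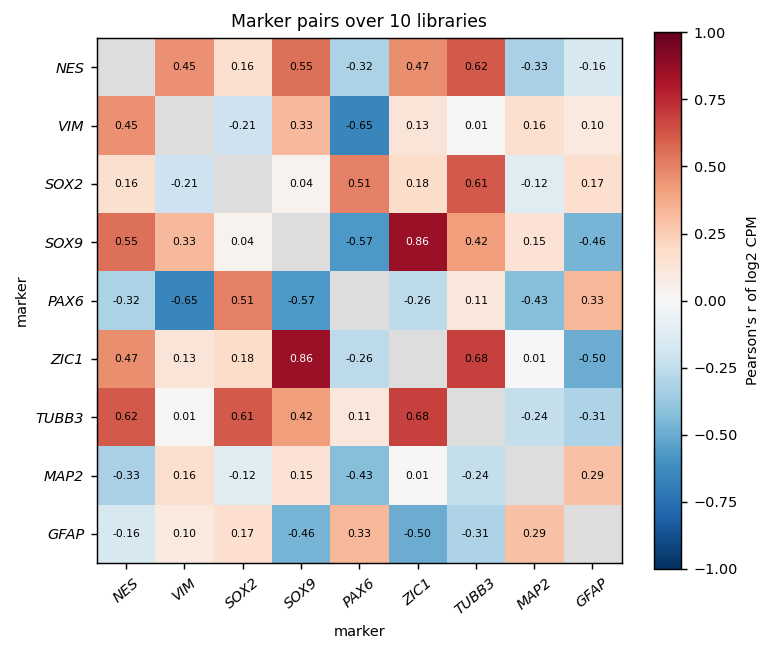
Pearson's r of log2 CPM over the 10 libraries for each pair of the 9 markers, on a scale from -1 (blue) to 1 (red). SOX9 with ZIC1 is the darkest red cell at 0.86 and VIM with PAX6 the darkest blue at -0.65; no pair passed adjustment.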

How the data were processed

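Poly(A) mRNA of each tumour was made into stranded libraries and read as single 75 bp ends, per the labels' protocols. The deposited table holds raw counts of reads per human gene; per the submitters' processing notes, STAR aligned the reads to GRCh38 and HTSeq 0.9.0 counted them. Not given in the sources used here are the annotation release, the strand setting, and how shared and mouse reads were treated. The organism label is mouse, the host species.

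Gene names of the 10 markers come from the list of members, since the table holds identifiers only. The members and 14 further marker lists (177 symbols) were chosen with earlier results of these data known; 0 identifiers matched the name table, so those lists, genes of like pattern, and sequences were not analysed here.

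Counts were filtered with filterByExpr (minimum count 10), scaled by TMM and tested by edgeR 4.0.16 (R 4.3.3) with its quasi-likelihood test, fitting diet over all 10 libraries at once; the script was checked on simulated data. P-values were adjusted by Benjamini-Hochberg over all 16013 genes tested, with a threshold of 0.05. The SE is the log2 fold change over the square root of F, and intervals are 95%. A prior count of 2 went into log2 CPM. Correlations used 100000 permutations, two-sided. Alternatives were RLE scaling, no filter or a strict one (10 counts in every library), DESeq2 1.42.0, and limma-voom 3.58.1 with a quality weight per library. Further alternatives were only the groups compared, a replicate block, and leaving out each library. Leaving out fish oil replicates 2 and 4 together was added after seeing the data. Named genes were the 10 markers. No batch is given in the labels, and no 2 libraries agreed within sampling noise.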

Additional observations from a re-analysis of the deposited data

Results flagged for a closer look

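A library far from the others of its diet was looked for in fish oil, the only diet with 4 libraries, for the 9 detected markers. None passed the rule, which with 4 libraries can flag only a very wide gap. The library at the wider end gap was fish oil replicate 4 for NES, SOX9, ZIC1, TUBB3 and GFAP, and fish oil replicate 1 for VIM, SOX2, PAX6 and MAP2. The widest gap was that of NES in fish oil replicate 4 (19.3 CPM), at 0.553 of the range of the group, below the critical value of Dixon's test for 4 samples at the 95% level. No marker had all DHA oil libraries on one side of the control mean and all fish oil libraries on the other.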

How the results depend on the processing

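No marker was called in any comparison under any of the 18 alternatives run, and the smallest adjusted p among them was 0.542. The unadjusted p was under 0.05 for 4 of 161 marker values in DHA oil and 3 of 161 in fish oil against control. It was so for 4 of 161 between the oils and 2 of 152 in both oils against control. Of 635 marker log2 fold changes recomputed, 573 kept their direction and 62 did not. All of the 62 had a main value of at most 0.29 in absolute size. The 573 include fits that left out libraries of a diet outside the comparison. The fold change could hardly move in those fits, so the share kept overstates stability. With CPM of the raw total, the diet means of the detected markers moved by less than 1 SD in 27 of 27 cases. With no filter, 57, 56, 14 and 76 genes were called for DHA oil and for fish oil against control, between the oils, and for both oils against control. DESeq2 called 11, 20 and 1 in the first 3 of these, limma-voom 3 for DHA oil, 0 for fish oil and 1 for both oils against control, and the strict filter 0 for fish oil and 0 for both oils against control. A fit of only fish oil and control called 7 genes. Replicate numbers showed no clear pairing of the libraries. Of the same-numbered pairs, 1 of 9 had a correlation of deviations over 0.1, against 5 of 24 others. So few pairs cannot exclude a pairing. The replicate block called 1, 0 and 12 genes for DHA oil, fish oil and both oils against control. With fish oil replicates 2 and 4 left out together 0 and 0 genes were called for fish oil and for both oils against control. Leaving out 1 library in turn gave 0 to 5, 0 to 22, 0 to 1 and 3 to 35 genes in the 4 comparisons, the highest counts against control each arising without control replicate 2. The cause of these shifts was not tested.

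Directions turned as follows, on the log2 scale. For fish oil against control, VIM was -0.005 under the strict filter and -0.082 without fish oil replicates 2 and 4. In the same comparison TUBB3 was 0.139 with limma-voom and its quality weights, 0.076 with the replicate block and 0.249 without those libraries. For fish oil against DHA oil, limma-voom gave 0.014 for SOX2 and 0.110 for SOX9. The block gave 0.025 for SOX2, 0.113 for SOX9 and -0.074 for GFAP. Without the 2 libraries the values were -0.010 for VIM, 0.101 for SOX2, 0.139 for SOX9 and 0.177 for TUBB3. For both oils against control, TUBB3 was 0.145 with limma-voom, 0.083 with the block and 0.161 without the 2 libraries, where NES was 0.034.

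With single libraries left out, DHA oil against control ranged from -0.246 to 0.012 for VIM, -0.033 to 0.579 for SOX2, -0.008 to 0.176 for PAX6, -0.198 to 0.543 for TUBB3 and -0.009 to 0.122 for MAP2. Fish oil against control ranged from -0.111 to 0.190 for NES, -0.079 to 0.113 for VIM, -0.056 to 0.557 for SOX2, -0.157 to 0.024 for PAX6, -0.079 to 0.167 for ZIC1 and -0.490 to 0.253 for TUBB3. Fish oil against DHA oil ranged from -0.008 to 0.257 for VIM, -0.089 to 0.046 for SOX2, -0.135 to 0.118 for SOX9, -0.011 to 0.177 for MAP2 and -0.091 to 0.323 for GFAP. Both oils against control ranged from -0.117 to 0.020 for VIM, -0.045 to 0.568 for SOX2, -0.081 to 0.1 for PAX6 and -0.344 to 0.398 for TUBB3. TUBB3, SOX2 and GFAP had the fewest reads and the largest counting error. For both oils against control a fit of only the groups compared is the fit of all libraries.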
